A study of Homo sapiens with 4 samples.

Results

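Antisense non-coding genes are long RNA genes named after a protein-coding partner, the sense gene, whose span or start region they share on the opposite strand, with the ending -AS and a number. The genes described here were chosen by their measured level. Of 1138 such non-coding genes in the table, 242 had a mean of at least 1 FPKM in at least 1 of the 4 groups, out of 26348 genes and 8679 non-coding genes listed. FPKM is a fragment count divided by gene length and by the library total, so levels of different genes can be set side by side per length. The members just inside the limit were CPNE8-AS1, NINJ2-AS1 and ATXN7L3-AS1, with highest group means of 1.0, 1.01 and 1.01 FPKM, and those just outside were FMNL1-AS1, UST-AS2 and FOXP4-AS1, with 0.957, 0.949 and 0.948 FPKM. A further gene of this name form is not analysed here.

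The 4 groups of 3 libraries were exposed A549, control A549, exposed 293T and control 293T. A549 is a human non-small cell lung cancer line, and 293T is a human embryonic kidney line that carries a viral large T antigen. Exposed cells had spent 2 h in a magnetic field and controls had no field. No drug, knockdown or other genetic change is labelled in any group. Each is a single long-cultured line, and the sources used here do not give how strong the field was, how it was made or how warm the cultures were. The labels do not say whether the libraries of a group stem from separate dishes, and p-values therefore speak only of the spread among these libraries, part or all of which may be technical. With 3 against 3 libraries an exact permutation test of 1 gene could not go below 0.10, so the tests below come from limma models fitted across all genes.

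RNA polymerase II starts in both directions at many promoters, and an antisense gene whose start lies back to back with that of its sense gene (head to head) shares such a start region. Others overlap the end of the sense gene (tail to tail) or lie within it. Many transcripts that leave a promoter in the antisense direction are ended early and degraded by the nuclear exosome, and those that are kept are spliced and polyadenylated like mRNA. For most of the genes named below no function is established, and the sense gene is then described in its place.

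The 12 libraries held between 37171616 and 38883963 counts recovered from the deposited values, a ratio of 1.046. Of 13 markers of A549, 10 reached 1 FPKM in both A549 groups, against 6 in exposed 293T and 5 in control 293T, while NKX2-1 and CDKN2A were near 0 in A549. Of 11 markers of 293T, 8 reached 1 FPKM in both 293T groups and 6 in both A549 groups, while PAX2, PAX8 and SOX11 stayed under 1 FPKM in 293T. PTPRC and CD3E, markers of blood cells, were at or near 0 in all groups, and of 6 markers of other cell types 2 reached 1 FPKM in A549 and 1 in 293T. Replicate 3 of the exposed group was the exposed library nearest to the control mean for 17 of the 22 members called higher in A549, for 13 of 17 called higher and 50 of 89 called lower in 293T, and for 21 of 59 called lower in A549. Several counts without that library are given below.

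Levels are given as a description only, because the genes were chosen by level. The median member was at 1.008 FPKM in exposed A549, 1.111 FPKM in control A549, 1.465 FPKM in exposed 293T and 1.754 FPKM in control 293T. At least 1 FPKM was reached by 123 members in exposed A549, 130 in control A549, 171 in exposed 293T and 194 in control 293T. All 242 members passed the filter on low values that preceded the tests, which asked for 0.5 FPKM in at least 3 libraries, and a member high in 1 line could pass through that line alone. All 4 groups reached 1 FPKM for 78 members, 103 members reached it in at least 1 group of each line, 41 in A549 only and 98 in 293T only. At 10 FPKM or more there were 7 members in exposed A549, 8 in control A549, 10 in exposed 293T and 11 in control 293T. The median count per member and library was 84.0, and 69 members had under 10 counts in at least 1 library.

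The highest member was FGD5-AS1 (chromosome 3, 14942779 to 14948441, minus strand of GRCh38.p14), with 50.7, 48.8 and 50 FPKM in exposed A549, 47.3, 44.9 and 44.8 FPKM in control A549, 40.8, 42.0 and 41.4 FPKM in exposed 293T and 37.9, 38.6 and 38.3 FPKM in control 293T. It was abundant in both lines. VPS9D1-AS1 (chromosome 16, 89711856 to 89718165, plus strand) followed, at 36.7 FPKM in control 293T against 15.5 FPKM in control A549. NUTM2A-AS1, PITPNA-AS1, OIP5-AS1, THAP9-AS1 and PSMA3-AS1 also lay between 8.17 and 15.6 FPKM in the controls of both lines. NUTM2A-AS1 has a close paralog, NUTM2B-AS1, so its reads may have been split between the copies.

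Other members were nearly confined to one line. In A549 IGFL2-AS1 stood at 25.5 FPKM in the controls against 0.00524 FPKM in 293T controls, and BCAN-AS1 at 13.3 against 0.0989 FPKM. DLGAP1-AS1 (5.65 against 0.184 FPKM), PRRT3-AS1 (5.16 against 0.198 FPKM) and C1RL-AS1 (3.71 against 0.00992 FPKM) had the same order. In the other direction IRS4-AS1, whose sense gene encodes an insulin receptor substrate long known from this kidney line, was at 0.00752 FPKM in control A549 against 8.42 FPKM in control 293T. Its sense gene IRS4 was at 0.178 against 221.7 FPKM. PHEX-AS1 was listed at 0 in all A549 libraries and averaged 4.84 FPKM in control 293T. GATA2-AS1, named after the transcription factor GATA2, was at 0.448 against 7.4 FPKM, PRKAG2-AS1 at 0.293 against 5.72 FPKM and SNTG2-AS1 at 0.0114 against 3.92 FPKM. Over all members the limma fit called 61 higher and 154 lower in control A549 than in control 293T, where 32.4% and 55.9% of all 13811 tested genes were called, and nothing is read from these counts since the level chose the members.

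**Figure D1:**
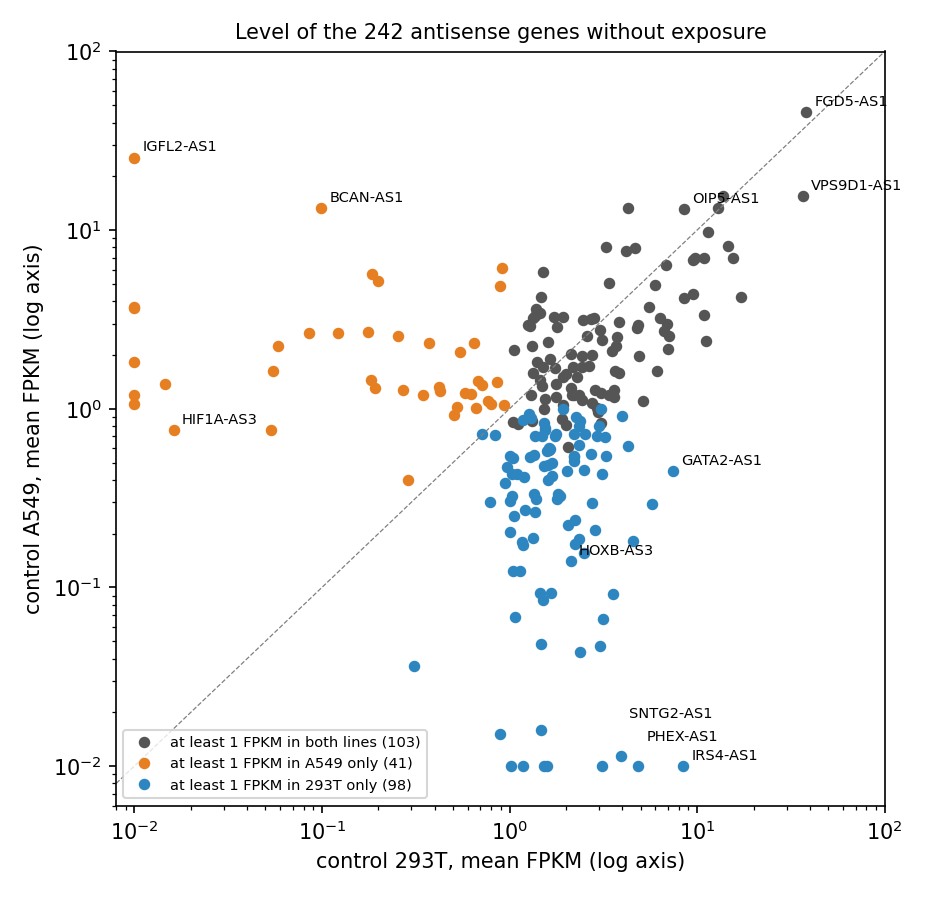
Mean FPKM of each of the 242 antisense genes in control A549 (vertical) and control 293T (horizontal), both on log axes, with 1 point per gene, coloured by the line in which it reached 1 FPKM in at least 1 group. Means below 0.01 FPKM are drawn at 0.01, which concerns 13 members, and the dashed line marks equal levels. FGD5-AS1 stands at the top right and IGFL2-AS1 and IRS4-AS1 at opposite edges.

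The HOX clusters carry antisense genes that are named after the cluster and have no single sense gene, and 6 of them were members. HOXA-AS2 averaged 2.93 FPKM in exposed A549, 3.6 FPKM in control A549, 1.04 FPKM in exposed 293T and 1.39 FPKM in control 293T, and HOXB-AS1 had the same order with 2.43, 2.93, 0.941 and 1.25 FPKM. HOXB-AS3 (0.14 against 2.12 FPKM), HOXC-AS1 (0.548 against 1.35 FPKM), HOXC-AS3 (0.0934 against 1.46 FPKM) and HOXD-AS2 (0.323 against 1.86 FPKM) were lower in control A549 than in control 293T. None of the 6 passed the limma test for exposure in either line, with adjusted p between 0.0939 and 0.921 in A549 and between 0.0963 and 0.666 in 293T.

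In exposed A549, 22 of the 242 members were called higher and 59 lower than in controls, that is 9.09% and 24.4%, against 13.3% and 26.9% of all genes tested. The call is an adjusted p of at most 0.05 in limma on log2(FPKM + 1), two-sided, adjusted over all genes tested. Log2 fold changes on this scale understate the change of low genes. They ran between -0.88 and 0.61 with a median of -0.07, against -0.04 for all genes, so over all members both A549 shares lie below those of all genes. Of the 1284 non-coding genes tested, 133 (10.4%) were called higher and 245 (19.1%) lower in A549, with a median of -0.027, so the members' share called lower lies above that of the non-coding genes. Among the 109 members at 1 FPKM or more in both A549 groups, 12 were higher and 37 lower, or 11.0% and 33.9%, and among the 78 at that level in all 4 groups 11 (14.1%) were higher and 28 (35.9%) lower. Whether any of these shares differ from one another was not tested. The counts over all members were 26 higher and 54 lower without exposed replicate 3, 26 and 41 under quantile normalization, and 27 and 42 after centring on each library's median. Such settings can move the calls of all genes, and the shares of all genes under them are not given here. In bulk RNA, a change in the make-up of the cells and a change of RNA per cell cannot be told apart.

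Members that rose in A549 included 3 named after genes of protein turnover and membranes. UBE2D3-AS1 (chromosome 4, 102828055 to 102844106, plus strand) had 1.08, 1.71 and 1.46 FPKM in exposed libraries and 0.635, 0.746 and 0.373 FPKM in controls. The groups did not overlap, and the ratio of means was 2.42 (log2 fold change 0.61 ± 0.11 SE, limma adjusted p = 0.000802). It lies within UBE2D3, which encodes a ubiquitin-conjugating enzyme and itself rose by 0.2 on the log2 scale (adjusted p = 0.0013 in limma). CD63-AS1 had 4.52, 4.39 and 4.08 FPKM in exposed libraries and 2.76, 2.7 and 2.09 FPKM in controls, again without overlap (0.6 ± 0.11, adjusted p = 0.000762 in limma). CD63, a tetraspanin of late endosomes, did not pass, at 142.5 FPKM in exposed and 143.5 FPKM in control cells. TAPT1-AS1 had 1.1, 0.987 and 0.967 FPKM in exposed libraries and 0.374, 0.425 and 0.395 FPKM in controls, a ratio of 2.56 (0.53 ± 0.06, limma adjusted p = 6.29e-05). KRT10-AS1, HLA-F-AS1 and MZF1-AS1 also rose, by 0.38, 0.37 and 0.35 on the log2 scale. CBLL1-AS1 passed with 0.36 but had an adjusted p of 0.0563 in limma-voom and missed the threshold without exposed replicate 1, exposed replicate 2 or control replicate 1 (adjusted p = 0.0594, 0.14 and 0.138).

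Members that fell in A549 were more numerous. BSG-AS1 (chromosome 19, 566534 to 572248, minus strand) had 2.91, 2.7 and 2.56 FPKM in exposed libraries and 6.3, 5.22 and 6.0 FPKM in controls. All exposed values lay below all controls, 2.14-fold lower in the mean (-0.88 ± 0.1, limma adjusted p = 5.23e-05). BSG, which encodes the membrane protein basigin, had 241.2 FPKM in exposed and 255.4 FPKM in control cells. MNX1-AS1, back to back with the homeobox gene MNX1, had 1.0, 1.42 and 1.34 FPKM in exposed libraries and 2.11, 2.77 and 3.42 FPKM in controls, and MNX1 fell as well, to 2.25 FPKM in exposed A549 against 3.52 FPKM in control A549. GAS6-AS1 (2.21-fold lower), BNC2-AS1 (2.54-fold lower), ASB16-AS1 (1.98-fold lower), TMEM147-AS1 (1.79-fold lower) and VPS9D1-AS1 (1.58-fold lower) showed no overlap between exposed and control libraries. CLN8-AS1 had 4.67, 4.78 and 4.79 FPKM in exposed libraries and 7.97, 7.85 and 8.17 FPKM in controls, 1.69-fold lower (-0.65 ± 0.08, limma adjusted p = 8.2e-05).

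In exposed 293T, 17 members were called higher and 89 lower than in controls, 7.02% and 36.8%, against 13.7% and 24.2% of all genes tested. The share called lower stood above that background and the share called higher below it, and whether the members differ from other genes was not tested. Log2 fold changes ran between -0.86 and 0.74 with a median of -0.14, against -0.03 for all genes. Of the 1284 non-coding genes tested, 88 (6.85%) were called higher and 304 (23.7%) lower in 293T. Among the 164 members at 1 FPKM or more in both 293T groups, 12 (7.32%) were higher and 65 (39.6%) lower. Of the 30 members whose GENCODE v29 exons share no base with exons of another gene, 0 were called higher and 7 lower in 293T (median -0.07). Of the 153 that share at least 1 base, 11 were higher and 62 lower (median -0.17). In A549 the 30 gave 0 and 8 (median -0.14), and the 153 gave 13 and 38 (median -0.08). Whether these sets differ from each other or from all genes was not tested. The counts over all members were 19 higher and 88 lower without exposed replicate 3, and 25 and 66 under quantile normalization. Shares of all genes under these settings are likewise not given. Summed over the 242 members, the level was 608.3, 609.6 and 626.6 FPKM in exposed 293T and 707.5, 698.9 and 708.5 FPKM in control 293T, and 488.9, 492.9 and 485.7 FPKM in exposed A549 and 536.5, 531.5 and 543.2 FPKM in control A549. In each line the exposed sums all lay below the control sums. These sums are a description only, since members were chosen by level and abundant ones weigh most. No such sum was taken over other genes.

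ASH1L-AS1 had the largest fall in 293T among the members. This gene (chromosome 1, 155562042 to 155563944, plus strand) overlaps the start of ASH1L, which encodes a histone methyltransferase. It had 1.58, 1.5 and 2.24 FPKM in exposed libraries and 3.83, 3.94 and 4.22 FPKM in controls, 2.25-fold lower in exposed cells without overlap (-0.86 ± 0.12, limma adjusted p = 0.000279). ASH1L itself was slightly higher, at 14.6 FPKM in exposed and 13.2 FPKM in control 293T (0.13, adjusted p = 0.00762 in limma). In A549 ASH1L-AS1 had 0.429, 0.241 and 0.665 FPKM in exposed libraries and 1.0, 1.07 and 0.661 FPKM in controls, where 1 control lay among the exposed values. That call had an adjusted p of 0.0171 in limma and missed the threshold without exposed replicate 2, control replicate 1 or control replicate 2 (0.075, 0.0539 and 0.0648).

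CCDC18-AS1 (chromosome 1, 93310109 to 93345811, minus strand) had 0.874, 0.862 and 0.99 FPKM in exposed libraries and 2.08, 1.98 and 2.32 FPKM in controls, with adjusted p = 7.52e-06 in limma and a ratio of 0.427. NARF-AS2 (2.61-fold lower), TMEM147-AS1 (1.6-fold lower), AGAP2-AS1 (1.73-fold lower), ZSWIM8-AS1 (1.91-fold lower), THAP7-AS1 (2.11-fold lower) and SCAMP1-AS1 (1.78-fold lower) fell without overlap. Exons of other genes cover 98.8% of the exonic bases of ZSWIM8-AS1. Its sense gene ZSWIM8 encodes a ubiquitin ligase component that marks certain microRNAs for decay. Since counting by strand is not known, the value of ZSWIM8-AS1 cannot be kept apart from those of the genes covering it. The share covered by ZSWIM8 alone was not taken. ZSWIM8 also fell, to 7.39 FPKM in exposed 293T against 8.63 FPKM in control 293T. SNTG2-AS1 and TDH-AS1 also fell in 293T, by 0.58 each on the log2 scale.

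Rises in 293T were fewer. ATE1-AS1 (chromosome 10, 121928312 to 121951965, plus strand), which overlaps the start of the arginyltransferase gene ATE1, had 1.9, 0.983 and 0.813 FPKM in exposed libraries and 0.357, 0.381 and 0.192 FPKM in controls. The groups did not overlap, the ratio of means was 3.97, and exposed replicate 1 was the highest library (0.74 ± 0.13, limma adjusted p = 0.00121). UBQLN1-AS1, named after the proteasome shuttle factor ubiquilin, had 2.56, 1.61 and 1.67 FPKM in exposed libraries and 0.948, 1.03 and 1.18 FPKM in controls. SVIL-AS1 had 3.1, 2.86 and 2.57 FPKM in exposed libraries and 1.68, 1.86 and 1.63 FPKM in controls, while SVIL, which encodes an actin-binding protein, was at 1.98 and 1.89 FPKM. ZNF225-AS1, ATXN1-AS1, ZNF503-AS2, PCBP1-AS1 and PRDM6-AS1 rose by 0.49, 0.45, 0.35, 0.32 and 0.3 on the log2 scale.

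The comparisons in the 2 lines use different libraries but share the estimate of each gene's spread. Their calls are therefore not independent and are set side by side as a description. Of the members, 9 were called higher in both lines, which is 40.9% of those higher in A549 and 52.9% of those higher in 293T. The 9 were FGD5-AS1, MZF1-AS1, NUTM2B-AS1, OIP5-AS1, PCBP1-AS1, SVIL-AS1, TAPT1-AS1, UBQLN1-AS1 and ZNF225-AS1. Another 39 were called lower in both lines, 66.1% of those lower in A549 and 43.8% of those lower in 293T, among them AGAP2-AS1, ASH1L-AS1, CCDC18-AS1, MNX1-AS1, NARF-AS2, SCAMP1-AS1, TMEM147-AS1, TRIM52-AS1 and VPS9D1-AS1. ZNF225-AS1 was at 0.332 FPKM in exposed and 0.179 FPKM in control A549, and its call there (limma adjusted p = 0.0317) was lost without exposed replicate 1 or 2 or control replicate 1 or 2, at 0.0622 to 0.132. MZF1-AS1 in 293T (limma adjusted p = 0.0161) was lost without exposed replicate 2 (0.0714) or control replicate 2 (0.0716). LHX4-AS1 and TAF1A-AS1 were called higher in A549 and lower in 293T, no member was called the reverse way, and 105 passed in neither line. Across the 242 members the 2 log2 fold changes had a Pearson r of 0.53, given as a description across genes that share libraries. Over all 13811 genes tested r was 0.60. There 873 were called higher in both lines, 47.5% of those higher in A549 and 46.0% of those higher in 293T, and 1960 lower in both, 52.8% of those lower in A549 and 58.6% of those lower in 293T. Whether the members differ from all genes in this was not tested. Without exposed A549 replicate 3 the members called in both lines were 10 higher and 32 lower, and without exposed 293T replicate 3 they were 13 and 39.

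**Figure D2:**
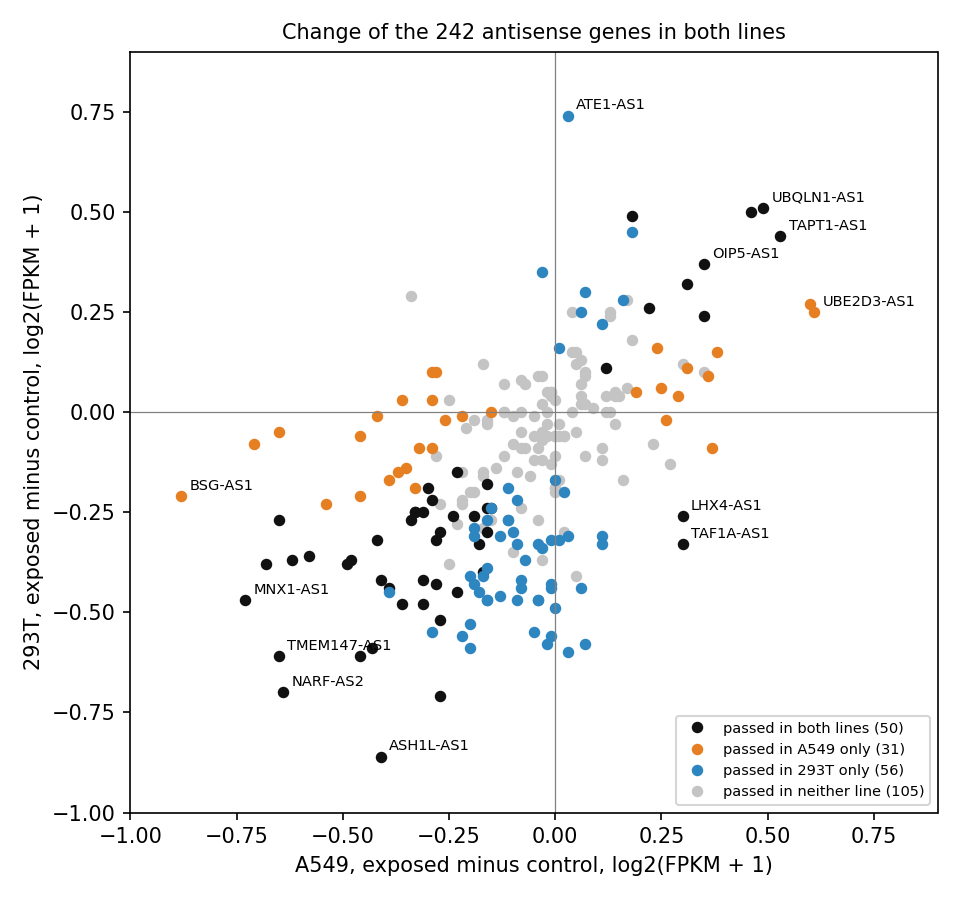
Log2 fold change of each antisense gene, exposed minus control on the log2(FPKM + 1) scale, in A549 (horizontal) and 293T (vertical), with 1 point per member coloured by the line or lines in which it passed the limma test. Of the 50 that passed in both lines, 39 lie at the lower left and 9 at the upper right, and LHX4-AS1 and TAF1A-AS1 lie at the lower right.

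**Figure D3:**
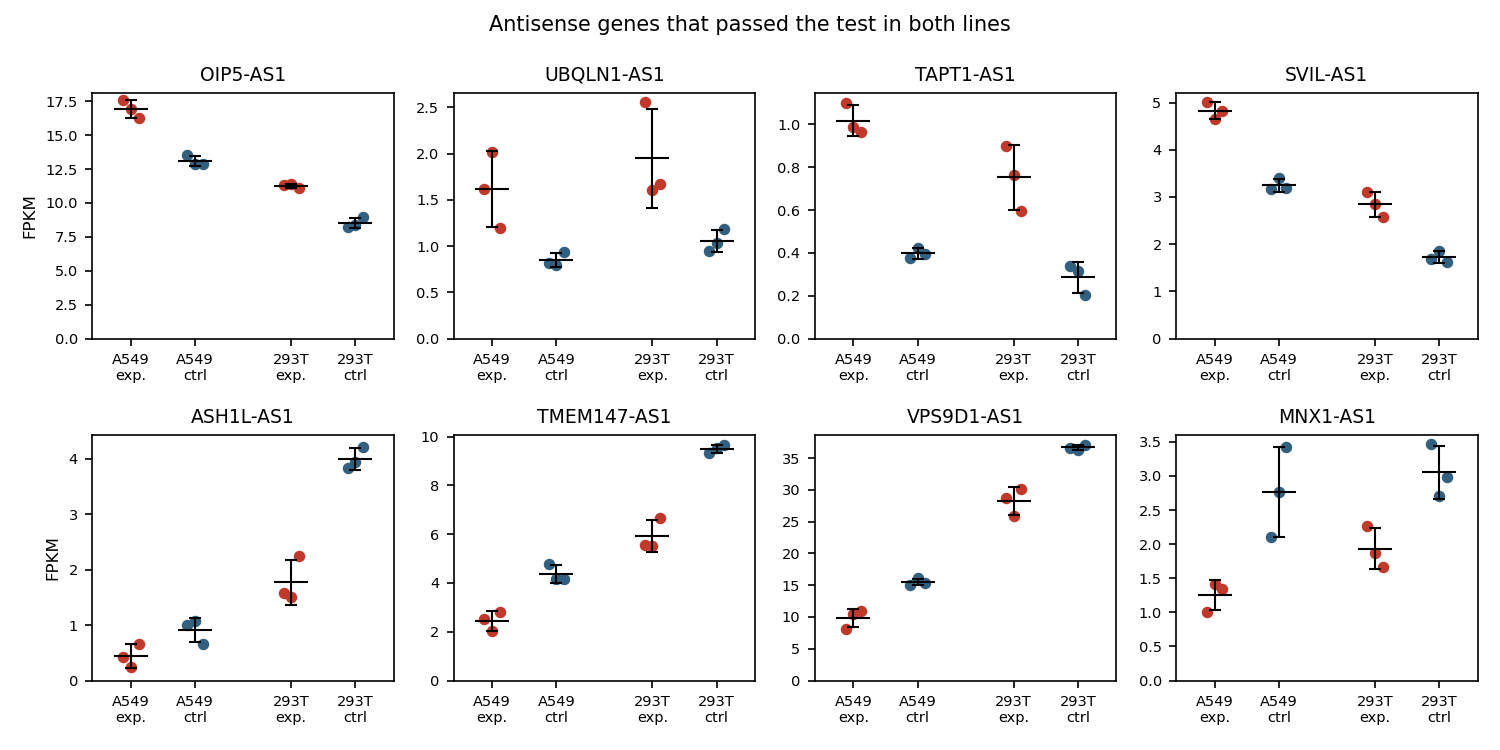
FPKM of 8 antisense genes that passed in both lines, with 1 point per library, a black dash for the group mean and bars of 1 SD (n = 3). Genes of the top row were higher with exposure in A549 and in 293T, and genes of the bottom row were lower in both. In A549 1 ASH1L-AS1 control lies among the exposed values.

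OIP5-AS1, which rose in both lines, is a well studied antisense gene. It is also called Cyrano, and its RNA carries a highly conserved, extensively paired site that triggers decay of the microRNA miR-7 through ZSWIM8. The sequences are shown so that the pairing can be read. The seed of miR-7 and the bases opposite it are in capitals, the miRNA is from RefSeq (GRCh38.p14) and the site from the GENCODE v29 transcript OIP5-AS1-201, bases 2869 to 2894 of 8829.
hsa-miR-7-5p: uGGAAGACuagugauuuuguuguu
OIP5-AS1 site: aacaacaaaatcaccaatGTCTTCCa
All 12 bases opposite the 3′ end of the miRNA matched it, with 2 extra bases between that block and the seed. The transcript holds 3 matches to the seed in all. OIP5-AS1 (chromosome 15, 41282697 to 41313338, plus strand) had 17.6, 16.9 and 16.3 FPKM in exposed A549 and 13.5, 12.9 and 12.9 FPKM in control A549. It had 11.3, 11.4 and 11.1 FPKM in exposed 293T and 8.26, 8.35 and 8.95 FPKM in control 293T. Exposed and control libraries were apart in both lines, with ratios of 1.3 and 1.32 (0.35 ± 0.04 and 0.37 ± 0.04, limma adjusted p = 5.05e-05 and 6.97e-05). MicroRNAs were not measured by these libraries. The sense gene OIP5, a centromere factor that OIP5-AS1 overlaps at its end, was at 7.96 FPKM in exposed and 6.61 FPKM in control A549 and at 14.7 and 14.2 FPKM in exposed and control 293T, and it passed in A549 only.

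The abundant FGD5-AS1 rose by 0.12 ± 0.03 in A549 and by 0.11 ± 0.03 in 293T (limma adjusted p = 0.00611 and 0.0126), a ratio of 1.09 and 1.08. PSMA3-AS1, named after a proteasome subunit, was at 10.3, 9.98 and 10 FPKM in exposed A549 and 10.8, 9.02 and 9.64 FPKM in control A549, with overlap, and missed the threshold in both lines (adjusted p = 0.677 and 0.0617 in limma). TMPO-AS1, which overlaps the start of TMPO, the gene of a nuclear lamina protein, had 1.86, 1.63 and 1.92 FPKM in exposed 293T and 2.86, 2.64 and 2.69 FPKM in control 293T, where it fell (limma adjusted p = 0.00175), while TMPO was at 56.5 and 56.6 FPKM. NUTM2A-AS1 and THAP9-AS1 passed in neither line.

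The size of the effect was called different between the lines for 23 members. The difference, A549 minus 293T, was higher for 16 and lower for 7, which is 6.61% and 2.89% of the members against 5.51% and 7.03% of all genes tested. Only 5 of the 23 had at least 1 FPKM in all 4 groups, and 10 had under 10 counts in some library. On recovered counts in limma-voom, 4 higher and 1 lower were past the threshold. Without exposed 293T replicate 3 the counts were 25 and 8, and without control 293T replicate 3 the lower ones numbered 3.

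LHX4-AS1 was higher with exposure in A549 and lower in 293T. This gene (chromosome 1, 180269663 to 180274681, minus strand) lies within LHX4, a LIM homeobox gene. It had 2.78, 2.66 and 2.54 FPKM in exposed A549 and 1.92, 1.96 and 2.06 FPKM in control A549, and 3.79, 3.87 and 4.12 FPKM in exposed 293T and 4.75, 4.79 and 5.16 FPKM in control 293T. Exposed libraries lay above all controls in A549 and below all controls in 293T, and the difference of 0.56 ± 0.07 passed (limma adjusted p = 0.00053) in every alternative run. LHX4 was at 0.993 FPKM in exposed and 1.16 FPKM in control A549, and at 0.95 and 1.16 FPKM in exposed and control 293T.

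For BSG-AS1 the difference was -0.67 ± 0.14 (limma adjusted p = 0.0113). In 293T it had 1.05, 1.06 and 1.36 FPKM in exposed libraries and 1.42, 1.94 and 1.16 FPKM in controls, which overlap, and its log2 fold change of -0.21 did not pass there (adjusted p = 0.13 in limma). With a pseudocount of 0.1 the adjusted p was 0.0571, and in limma-voom 0.196. TAF1A-AS1, whose start is 13 bases from that of TAF1A, a subunit of an RNA polymerase I factor, had 1.41, 1.41 and 0.895 FPKM in exposed A549 and 0.619, 0.863 and 0.943 FPKM in control A549, which overlap, and 1.32, 1.63 and 1.21 FPKM in exposed 293T and 2.02, 2.14 and 1.8 FPKM in control 293T. The difference of 0.63 ± 0.14 had an adjusted p of 0.0148 in limma and 0.0613 in limma-voom, and the call within A549 (adjusted p = 0.0312) was lost without exposed replicate 1, exposed replicate 2 or control replicate 1 (0.119, 0.115 and 0.12). The call within 293T (adjusted p = 0.0244 in limma) was lost without exposed replicate 1 or 3 or control replicate 1 or 2, at 0.0671 to 0.0824. ZSWIM8-AS1, with 0.64, 0.907 and 0.746 FPKM in exposed A549 and 0.617, 0.883 and 0.671 FPKM in control A549, differed by 0.63 ± 0.12 (limma adjusted p = 0.00617, limma-voom 0.0558).

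For other members called different, one line held little RNA. In A549 TDH-AS1 had at most 0.185 FPKM, ATE1-AS1 at most 0.108 FPKM and SNTG2-AS1 at most 0.0343 FPKM, and in 293T ADIRF-AS1 had at most 0.0161 FPKM and DDN-AS1 at most 0.182 FPKM. Their differences of 0.65, -0.71, 0.56, -0.41 and -0.39 did not pass in limma-voom (adjusted p = 0.0682, 0.764, 0.884, 0.987 and 0.0971). NRSN2-AS1, at 1.37 FPKM or more in the controls of both lines, differed by -0.39 ± 0.11 (limma adjusted p = 0.0403, limma-voom 0.184). The call for NRSN2-AS1 was lost when any of 8 of the 12 libraries was left out.

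Each member was then set beside its sense gene. A sense gene is listed for 235 members, and DLGAP1 and HIF1A have 2 members each. In 198 pairs both genes passed the filter. The difference between the antisense and the sense log2(FPKM + 1) was tested over all 280 such pairs of the table, of which these 198 are most. In A549 the ratio was called higher in exposed cells for 24 pairs and lower for 30, against 12.5% and 12.5% of all pairs. In 293T it was called higher for 18 and lower for 57, against 8.57% and 24.6% of all pairs, and the counts were 16 and 53 without exposed replicate 3. Without exposed A549 replicate 3 the A549 counts were 30 and 27. Centring on each library's median leaves these ratios as they are, whereas under quantile normalization 27 were higher and 27 lower in A549 and 23 and 47 in 293T. The ratio was also fitted by limma on log2 recovered counts scaled by library total, without the weights of limma-voom. In that fit the 293T counts were 6 and 21. Of 197 sense genes tested, 35 were called higher and 48 lower in 293T, with a median of -0.02 on the log2 scale. In A549 31 were called higher and 50 lower, with a median of -0.05. Over all genes tested 13.7% were higher and 24.2% lower in 293T, and 13.3% and 26.9% in A549. Whether the sense genes differ from all genes was not tested.

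Calls of an antisense gene and its sense gene were also set side by side. Across the 198 pairs the log2 fold changes had a Pearson r of 0.08 in A549 and -0.01 in 293T, given as a description across genes of the same libraries. In 293T 19 pairs were lower for both genes, 3 higher for both, 11 lower for the antisense and higher for the sense gene, and 1 the reverse. In A549 these counts were 14, 6, 8 and 3. Only the antisense gene passed in other pairs, lower in 43 and higher in 10 in 293T, and lower in 27 and higher in 11 in A549. Only the sense gene passed in others, lower in 29 and higher in 21 in 293T, and lower in 34 and higher in 17 in A549. Neither passed in 61 pairs in 293T and 78 in A549. How many joint calls unrelated genes would give was not worked out, and nothing is read from these counts. Where a pair shares exonic bases and the reads were counted without strand, the 2 values cannot be fully told apart. Of 183 members with exons in GENCODE v29, 153 shared at least 1 exonic base with exons of any other gene, on either strand. The median share over the 183 was 11.1%, and 16 shared at least 50%. The share with the sense gene alone was not taken.

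**Figure D4:**
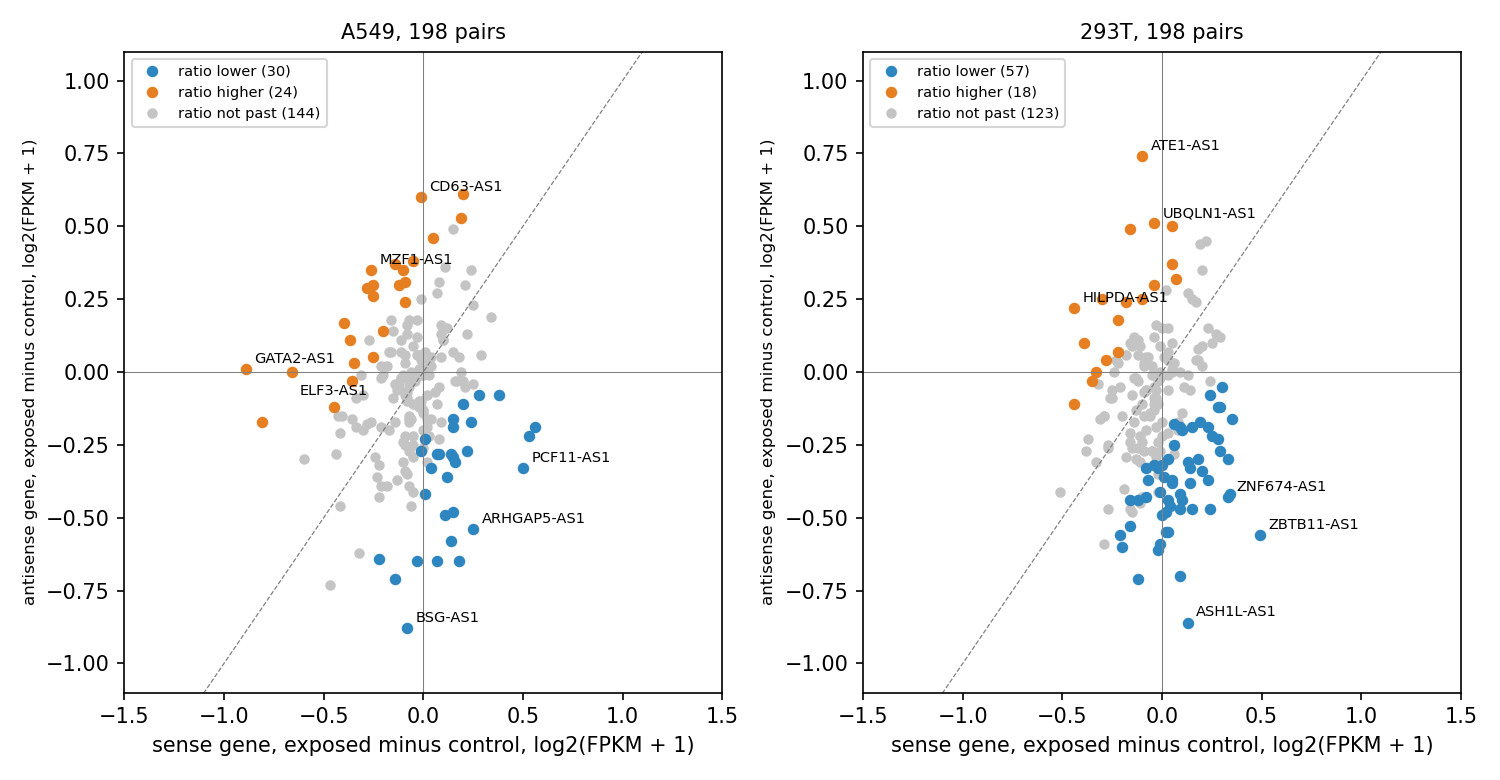
Log2 fold change, exposed minus control on the log2(FPKM + 1) scale, of the antisense gene (vertical) against its sense gene (horizontal), for A549 on the left and 293T on the right, with 1 point per pair. Colours mark pairs whose antisense to sense log ratio was called. The dashed line marks equal change on this scale, which understates the change of low genes. In 293T 57 called pairs lie below the line and 18 above it.

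In some pairs the antisense gene fell while the sense gene rose. ZBTB11-AS1 (chromosome 3, 101676430 to 101679217, plus strand) overlaps the start of ZBTB11, a zinc finger gene. It had 2.03, 2.12 and 2.69 FPKM in exposed 293T and 3.93, 3.93 and 3.6 FPKM in control 293T, while ZBTB11 averaged 12.2 FPKM in exposed and 8.39 FPKM in control 293T. All exposed antisense values were below the controls, and the log ratio fell by 1.05 ± 0.11 (limma adjusted p = 1.01e-05). In A549 ZBTB11 rose to 9.53 FPKM in exposed against 6.28 FPKM in control cells, ZBTB11-AS1 missed the threshold (adjusted p = 0.0538 in limma), and the ratio fell by 0.76 ± 0.11 (limma adjusted p = 0.000114). ASH1L-AS1, with the values given above, fell by 0.99 ± 0.13 against ASH1L in 293T (limma adjusted p = 7.15e-05). KANSL1L-AS1 had 0.68, 0.623 and 0.936 FPKM in exposed 293T and 1.53, 1.31 and 1.19 FPKM in control 293T, against 1.2 and 0.737 FPKM for KANSL1L. MICA-AS1 fell in 293T while MICA, the gene of a stress ligand for natural killer cells, rose to 10.5 FPKM in exposed against 8.69 FPKM in control cells.

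In A549 PCF11-AS1 had the largest fall of the ratio, by 0.83 ± 0.12 (limma adjusted p = 0.000105). All of its exonic bases (100%) lie in exons of other genes, and the share in PCF11 alone was not taken. PCF11, which encodes a factor of transcription termination, rose to 11.4 FPKM in exposed A549 against 7.77 FPKM in control A549. The antisense gene had 0.449, 0.391 and 0.396 FPKM in exposed and 0.786, 0.814 and 0.735 FPKM in control A549. Its own call (adjusted p = 0.0284 in limma) was lost when any single A549 library was left out, with adjusted p between 0.054 and 0.0728. CLN8-AS1 itself fell in 293T by 0.27 on the log2 scale (limma adjusted p = 0.0191, and 0.0671 without exposed replicate 1). It fell against CLN8, the gene of a protein that exports lysosomal enzymes from the endoplasmic reticulum, in A549 by 0.82 ± 0.1 and in 293T by 0.56 ± 0.1 (limma adjusted p = 0.000105 and 0.000842). ARHGAP5-AS1 fell against ARHGAP5, the gene of a GTPase-activating protein, by 0.79 ± 0.13, with 1.36, 2.54 and 1.78 FPKM in exposed and 3.05, 2.84 and 3.56 FPKM in control A549. SPRY4-AS1 did not pass on its own in A549 (adjusted p = 0.0926 in limma), and its ratio moved with SPRY4, a feedback inhibitor of receptor tyrosine kinases, which rose to 3.37 FPKM in exposed A549 against 1.96 FPKM in control A549. That ratio had an adjusted p of 0.186 in limma on recovered counts.

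In other pairs the ratio rose while the sense gene fell and the antisense gene did not pass. GATA2-AS1 had 0.517, 0.483 and 0.363 FPKM in exposed A549 and 0.534, 0.481 and 0.328 FPKM in control A549, which overlap, while GATA2 fell to 2.9 FPKM in exposed against 6.23 FPKM in control A549. The ratio rose by 0.9 ± 0.13 (limma adjusted p = 0.000114). ELF3-AS1 had 3.59, 3.41 and 3.96 FPKM in exposed and 3.16, 4.22 and 3.63 FPKM in control A549, again with overlap. ELF3, an epithelial transcription factor whose start is 234 bases away, fell to 33.3 FPKM against 53.2 FPKM in control A549. The ratio rose by 0.66 ± 0.09 (limma adjusted p = 0.000105, and 0.468 in limma on recovered counts). CIRBP, the gene of the cold-inducible RNA-binding protein, fell to 15.2 FPKM in exposed against 27.5 FPKM in control A549, with CIRBP-AS1 at 0.373 and 0.545 FPKM. The ratio rose by 0.64 ± 0.12 on the log2(FPKM + 1) scale, but by 0.41 with a pseudocount of 0.1 (limma adjusted p = 0.219). In 293T CIRBP-AS1 fell, to 2.2 FPKM in exposed against 3.25 FPKM in control cells, beside CIRBP at 23.4 and 33.8 FPKM, and the ratio did not pass (adjusted p = 0.508 in limma).

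In a further set of pairs the antisense gene rose while the sense gene fell or did not pass. MZF1-AS1, whose span holds the zinc finger gene MZF1, had 3.16, 3.02 and 2.8 FPKM in exposed and 2.25, 2.01 and 2.13 FPKM in control A549, while MZF1 averaged 3.48 FPKM in exposed and 4.37 FPKM in control A549. The ratio rose by 0.61 ± 0.09 (limma adjusted p = 0.000118). HILPDA-AS1 had 1.67, 1.67 and 2.06 FPKM in exposed and 1.36, 1.4 and 1.43 FPKM in control 293T. Its sense gene HILPDA, a hypoxia-inducible gene of lipid droplets, fell to 7.86 FPKM in exposed against 11.0 FPKM in control 293T, and the ratio rose by 0.66 ± 0.1 (limma adjusted p = 0.000352). The call of HILPDA-AS1 itself was lost without exposed replicate 3 (adjusted p = 0.13 in limma) and without each 293T control (0.0693 to 0.0996). HIF1A-AS3 rose in A549, with 0.974, 1.49 and 0.875 FPKM in exposed and 0.82, 0.629 and 0.822 FPKM in control libraries (limma adjusted p = 0.0326, but 0.102 without exposed replicate 2 and 0.12 without control replicate 2), and HIF1A, the hypoxia-inducible transcription factor, fell to 140.9 FPKM in exposed against 167.6 FPKM in control A549. ATE1-AS1 and UBQLN1-AS1 gave ratio rises of 0.84 and 0.55 in 293T. The first of these had an adjusted p of 0.0911 in limma on recovered counts.

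By RefSeq spans of GRCh38.p14, 131 of the 242 members lie head to head with the sense gene, 89 with overlap and 42 apart. The starts of these 131 pairs are a median of 379 bases apart, and 104 pairs have starts within 1000 bases. Another 45 members overlap the sense gene tail to tail, 6 lie tail to tail apart from it, 30 lie within it and 9 contain it, and 21 could not be placed. Of the 42 that are head to head and apart, 10 were called lower in A549 (23.8%) and 19 in 293T (45.2%), and none was called higher in either line. Of the 89 with overlap, 12 (13.5%) were higher and 18 (20.2%) lower in A549, and 7 (7.87%) higher and 33 (37.1%) lower in 293T. Over all genes 13.3% were higher and 26.9% lower in A549, and 13.7% and 24.2% in 293T. Whether these classes differ from each other or from all genes was not tested.

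Head-to-head pairs with neighbouring starts show the promoter from which both genes leave. Of the 14 tested pairs apart with starts at most 110 bases from each other, the ratio was called lower in 293T for 5. Over all 280 pairs 24.6% were called lower in 293T, and whether the 14 differ was not tested. Promoter windows of the 5, 250 bases before to 50 bases after the antisense start (RefSeq, GRCh38.p14), are shown on the strand of the antisense gene. Capitals run from the first base of the sense gene, which is read leftwards on the other strand, to the first base of the antisense gene.
RTCA-AS1, chr1:100266125-100266424, minus strand: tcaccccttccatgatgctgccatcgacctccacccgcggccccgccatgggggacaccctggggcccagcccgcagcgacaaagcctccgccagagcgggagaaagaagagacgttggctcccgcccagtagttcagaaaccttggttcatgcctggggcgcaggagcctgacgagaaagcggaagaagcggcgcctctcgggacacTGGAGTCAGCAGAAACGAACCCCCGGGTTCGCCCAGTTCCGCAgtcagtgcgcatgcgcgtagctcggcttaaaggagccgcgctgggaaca
SBNO1-AS1, chr12:123364698-123364997, plus strand: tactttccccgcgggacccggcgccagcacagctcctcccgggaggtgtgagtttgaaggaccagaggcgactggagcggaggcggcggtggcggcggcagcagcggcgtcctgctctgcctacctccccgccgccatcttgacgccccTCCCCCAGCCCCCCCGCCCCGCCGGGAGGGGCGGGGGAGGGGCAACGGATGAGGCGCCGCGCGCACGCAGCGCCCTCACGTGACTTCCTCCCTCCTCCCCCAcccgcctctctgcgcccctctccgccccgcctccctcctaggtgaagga
SCAMP1-AS1, chr5:78360492-78360791, minus strand: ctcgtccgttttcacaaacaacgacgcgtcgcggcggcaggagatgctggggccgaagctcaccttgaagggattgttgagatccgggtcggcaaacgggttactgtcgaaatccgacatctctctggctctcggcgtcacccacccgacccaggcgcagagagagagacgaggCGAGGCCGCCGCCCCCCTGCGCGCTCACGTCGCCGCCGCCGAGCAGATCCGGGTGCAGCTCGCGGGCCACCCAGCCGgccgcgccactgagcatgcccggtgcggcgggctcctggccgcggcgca
TRIM52-AS1, chr5:181260962-181261261, plus strand: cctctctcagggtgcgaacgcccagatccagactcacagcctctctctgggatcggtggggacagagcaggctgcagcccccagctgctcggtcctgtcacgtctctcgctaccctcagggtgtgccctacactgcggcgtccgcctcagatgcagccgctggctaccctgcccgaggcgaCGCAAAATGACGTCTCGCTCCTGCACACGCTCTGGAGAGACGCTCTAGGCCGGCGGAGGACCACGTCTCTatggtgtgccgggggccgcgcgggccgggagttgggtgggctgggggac
ZNF674-AS1, chrX:46545240-46545539, plus strand: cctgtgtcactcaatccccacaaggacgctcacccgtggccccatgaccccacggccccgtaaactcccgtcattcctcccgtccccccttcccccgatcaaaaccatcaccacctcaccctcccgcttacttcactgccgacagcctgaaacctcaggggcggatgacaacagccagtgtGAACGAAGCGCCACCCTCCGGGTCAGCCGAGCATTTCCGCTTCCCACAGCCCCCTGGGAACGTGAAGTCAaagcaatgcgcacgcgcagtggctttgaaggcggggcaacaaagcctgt
The starts are 42, 101, 76, 69 and 69 bases apart in this order. None of these windows holds 3 alternating heat shock units of the kind described below.

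ZNF674-AS1 had 1.69, 2.03 and 2.4 FPKM in exposed 293T and 3.21, 2.78 and 3.26 FPKM in control 293T, all exposed values below all controls. ZNF674, a zinc finger gene that starts 69 bases away, rose to 1.63 FPKM in exposed against 1.1 FPKM in control 293T, and the log ratio fell by 0.76 ± 0.12 (limma adjusted p = 0.000431). TRIM52-AS1 had 4.11, 4.34 and 5.13 FPKM in exposed and 6.82, 7.14 and 6.06 FPKM in control 293T, and 1.74, 1.88 and 2.09 FPKM in exposed and 2.79, 2.62 and 2.78 FPKM in control A549. It fell in both lines without overlap, whereas TRIM52, a tripartite motif gene, did not pass in either, at 3.41 FPKM in exposed and 3.35 FPKM in control 293T. The ratio fell by 0.5 ± 0.08 in 293T and by 0.48 ± 0.08 in A549 (limma adjusted p = 0.000431 and 0.000326). SBNO1-AS1 had 2.64, 3.04 and 2.69 FPKM in exposed and 3.51, 3.97 and 3.51 FPKM in control 293T, while SBNO1, a gene of the strawberry notch family, rose to 13.3 FPKM in exposed against 11.6 FPKM in control 293T. The ratio fell by 0.48 ± 0.12 (limma adjusted p = 0.00655, and 0.109 in limma on recovered counts). The fall of SBNO1-AS1 itself (limma adjusted p = 0.0229) missed the threshold without exposed replicate 1 or 3 or control replicate 2, at 0.0569 to 0.0873.

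SCAMP1-AS1 had 1.56, 1.61 and 2.04 FPKM in exposed and 3.09, 3.02 and 3.19 FPKM in control 293T, without overlap. SCAMP1, a secretory carrier membrane protein gene, was at 9.11 and 9.15 FPKM. The fall of that ratio by 0.57 ± 0.17 passed (limma adjusted p = 0.0159). It did not pass without exposed replicate 1 or control replicate 2 (0.082 and 0.052) nor in limma on recovered counts (0.0597). RTCA-AS1 had 1.9, 2.0 and 2.25 FPKM in exposed and 3.49, 2.98 and 2.82 FPKM in control 293T, beside RTCA, an RNA cyclase gene, at 24.0 and 25.3 FPKM. Its ratio fell by 0.35 ± 0.11 (limma adjusted p = 0.0294). That ratio missed the threshold in limma on recovered counts (0.224) and without exposed replicate 2 (0.0955) or control replicate 1 (0.124).

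**Figure D5:**
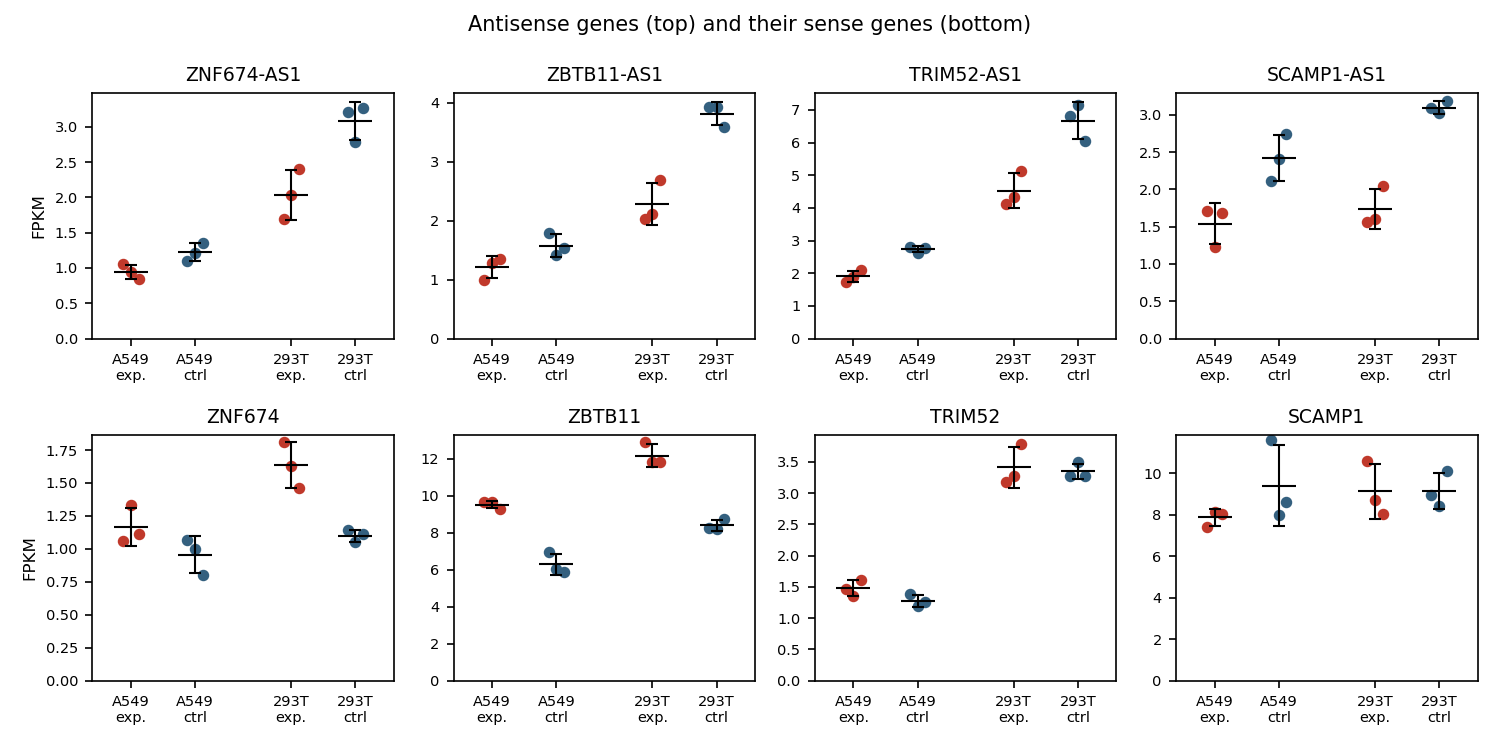
FPKM of 4 antisense genes (top) and their sense genes (bottom) in each library, with exposed left of control in each line, a black dash for the mean and bars of 1 SD (n = 3). In 293T the exposed values of all 4 antisense genes lie below the controls, while ZNF674 and ZBTB11 lie above them and TRIM52 and SCAMP1 overlap.

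A promoter window was found for 191 members, 238 windows in all. The heat shock element, the site of the heat shock factors, is built of alternating inverted units around GAA and TTC. Both phases of 3 such units, GAANNTTCNNGAA and TTCNNGAANNTTC, were searched. Each is the reverse complement of the other, so both strands were covered, and overlapping matches counted as 1 window. A match stood in 1 of the 238 windows (0.42%), against 172 of 35116 windows of all genes (0.49%) and 0 of 322 windows of the sense genes. The window is that of TSPEAR-AS2, shown with the match in capitals as the only one among the members.
TSPEAR-AS2, chr21:44516965-44517264, plus strand: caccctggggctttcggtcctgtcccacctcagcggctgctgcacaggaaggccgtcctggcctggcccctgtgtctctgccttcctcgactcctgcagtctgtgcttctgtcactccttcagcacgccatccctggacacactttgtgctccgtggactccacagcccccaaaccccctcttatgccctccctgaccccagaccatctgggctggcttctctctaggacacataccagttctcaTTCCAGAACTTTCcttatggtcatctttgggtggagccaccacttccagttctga
TSPEAR-AS2 had 0.618, 0.497 and 0.69 FPKM in exposed and 1.35, 1.14 and 1.15 FPKM in control 293T, so it was lower in exposed cells (limma adjusted p = 0.00101), and in A549 it did not pass. Matches to 2 units, GAANNTTC or TTCNNGAA, which every match to 3 units also holds, stood in 13.0% of members' windows and 13.5% of all windows. By gene, at least 1 such match stood at 6 of 21 members called higher in A549, 2 of 44 called lower and 21 of 126 others. In 293T it stood at 3 of 12 called higher, 7 of 71 called lower and 19 of 108 others. A gene was counted here if any of its windows held a match, so the 13.5% of all windows is not the background of these counts. The share by gene over all genes was not taken, and whether the called groups differ was not tested. Nothing is read from counts this small, and a match is not a bound site. Members' windows had a median GC content of 64.5% and a ratio of observed to expected CpG of 0.8, against 58.7% and 0.58 for all windows.

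The factors that end and degrade antisense transcripts were examined by lists. Of 24 genes of the nuclear exosome, its adaptors and its cap-binding partners, 3 were called higher and 7 lower in A549 (12.5% and 29.2%), and 3 higher and 9 lower in 293T (12.5% and 37.5%). The exosome subunit gene EXOSC9 fell to 17.2 FPKM in exposed A549 against 23.8 FPKM in control A549, and to 28.4 FPKM in exposed 293T against 42.2 FPKM in control 293T (limma adjusted p = 0.00105 and 0.000394). EXOSC3, a gene of another exosome subunit, rose to 27.7 FPKM in exposed A549 against 23.1 FPKM in control A549, and to 28.5 FPKM in exposed 293T against 25.7 FPKM in control 293T (limma adjusted p = 0.000122 and 0.00535). EXOSC4 and EXOSC10 fell, by 0.28 and 0.15 in A549 and by 0.13 and 0.28 in 293T on the log2 scale. DIS3, the gene of an exosome nuclease, fell by 0.32 and 0.27 on the log2 scale, and TENT4B, which encodes a poly(A) polymerase that feeds RNAs to the exosome, rose to 7.56 FPKM against 4.41 FPKM in A549 controls and to 6.44 FPKM against 4.61 FPKM in 293T controls. Of 21 cleavage, polyadenylation and termination genes, 2 were higher and 4 lower in A549 (9.52% and 19.0%), and 3 higher and 6 lower in 293T (14.3% and 28.6%), with PCF11 among the rises in both lines. Of 14 Integrator genes, 5 were higher and 4 lower in A549 (35.7% and 28.6%), and 1 higher and 3 lower in 293T (7.14% and 21.4%), and INTS11, the gene of its endonuclease, fell by 0.25 and 0.24. List medians lay between -0.09 and 0.01, against -0.04 and -0.03 for all genes in A549 and 293T. Over all genes 13.3% were called higher and 26.9% lower in A549 and 13.7% and 24.2% in 293T, and nothing is read from counts over lists of this size. Whether these genes bear on the members was not tested.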

How the data were processed

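Total RNA of 12 libraries was extracted with TRIzol, treated with DNase, selected with oligo(dT) and primed with random hexamers for paired reads, per the labels' protocols. The values are FPKM per gene as deposited by the authors. Reads were processed with fastp, HISAT2 and HTSeq on GRCh38, per the submitters' processing notes, and the sources do not state whether strand was used in counting. Libraries were scaled to each other, and the common step of each gene's values gave whole counts for 100% of genes (within 0.01). Counts of a gene that share a common factor, or stand in a single library, can come out too low this way.

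Genes at 0.5 FPKM or more in at least 3 libraries were tested (13811 kept, 12537 removed) on log2(FPKM + 1), a pseudocount of 1, with limma 3.58.1 (R 4.3.3) and 1 mean per group, which left 8 residual degrees of freedom. P-values were adjusted by Benjamini-Hochberg over all genes, or over all 280 pairs for the antisense to sense log ratio, and 0.05 was the threshold. Summaries used Python 3.11.15, pandas 2.3.3, numpy 2.4.6, scipy 1.17.1 and matplotlib 3.10.9. The fit was tested on simulated data. Spans and promoters came from RefSeq GRCh38.p14 and shared exonic bases from GENCODE v29. Members, gene lists and alternatives were chosen with earlier results of these data known. The genes to name were the 10 largest rises and falls per line among members past the threshold without overlap, 5 each way by the difference between lines and by control level, the 8 highest members, 6 pairs each way and line by the log ratio, 3 genes on each side of the level limit, 5 always named genes and, per list, the genes with the smallest adjusted p. HIF1A-AS3, NUTM2B-AS1, RTCA-AS1, SBNO1-AS1, TRIM52-AS1, TSPEAR-AS2, the HOX antisense genes and the lists of opposite calls were chosen after their values or sequences were seen.

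The alternatives changed the pseudocount (0.1), the filter (none, or a mean of 1 FPKM or more) and the scaling (quantile normalization, median centring). They also changed the model (no trend, each line alone, a replicate block, limma-voom on recovered counts), the level limit and the libraries, each left out in turn. For the antisense to sense ratio, limma on log2 recovered counts without voom weights took the place of limma-voom.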

Additional observations from a re-analysis of the deposited data

Results flagged for a closer look

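The difference between the lines, exposed minus control in A549 less exposed minus control in 293T, was tested by the interaction term of the limma model, and it passed for 16 members higher in A549 and 7 lower. The 5 named on the higher side were TDH-AS1 at 0.65, ZSWIM8-AS1 at 0.63, TAF1A-AS1 at 0.63, SNTG2-AS1 at 0.56 and LHX4-AS1 at 0.56 on the log2(FPKM + 1) scale. The 5 named on the lower side were ATE1-AS1 at -0.71, BSG-AS1 at -0.67, ADIRF-AS1 at -0.41, NRSN2-AS1 at -0.39 and DDN-AS1 at -0.39. Of these 10, LHX4-AS1 alone kept its call in limma-voom. Levels of TDH-AS1, SNTG2-AS1 and ATE1-AS1 in A549 and of ADIRF-AS1 and DDN-AS1 in 293T were near 0, and the part of level in their differences was not tested.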

How the results depend on the processing

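Members called higher in A549 numbered 14 without the filter, and in 293T 11 with a mean of at least 1 FPKM. The difference between lines gave 8 higher and 3 lower with a pseudocount of 0.1, 10 and 3 without the filter, 4 lower with a mean of at least 1 FPKM, and 4 and 1 in limma-voom. Leaving out 1 library gave 12 to 25 higher and 3 to 8 lower. Members higher in control A549 than in control 293T numbered 39 with a mean of at least 1 FPKM. For the antisense to sense ratio, A549 gave 15 higher in limma on recovered counts. With a mean of at least 1 FPKM, A549 gave 19 lower. In 293T a pseudocount of 0.1 gave 11 higher and 34 lower, and limma on recovered counts gave 6 and 21. A limit of 2 FPKM left 140 members and 0.5 FPKM gave 358. The difference reversed in limma-voom for ZNF225-AS1 (0.21, adjusted p = 0.799) and ADIRF-AS1 (0.04, adjusted p = 0.987). The causes were not tested. Leaving out 1 library gave 15 to 26 higher and 43 to 62 lower in A549, and 13 to 19 and 68 to 90 in 293T. Of the 620 named results, 360 were past the threshold in the main fit, and only these could lose a call. Over all 620, 11775 recomputed values kept direction and side of the threshold, 703 lost the call, 158 gained one and 2 reversed. With the replicate number as a block, 20 higher and 60 lower were called in A549 and 18 and 87 in 293T. Deviations of same-numbered exposed and control libraries of a line correlated between -0.141 and 0, so no positive correlation by number was seen within a line. Whether equal numbers share anything across the lines was not tested. Depth limits the 69 members with under 10 counts in a library.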
